A study of Mus musculus with 77 samples.

Results

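The mRNA probes for Actb, B2m, Gapdh and Rpl19 are the 4 probes for protein-coding transcripts on a mouse miRNA panel of 603 probes, and they were picked by name, as the only mRNA rows of that table. The other rows are 566 mouse miRNA probes and 33 probes for viral miRNAs. The panel was read with the NanoString nCounter assay, in which a coloured barcode is attached to each target molecule and counted without amplification. All 4 transcripts were measured in 36 libraries of sorted or primary mouse cells.

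As background, Actb encodes beta-actin, the main cytoplasmic actin of motile cells. B2m encodes beta-2-microglobulin, the invariant light chain of MHC class I molecules on the surface of nucleated cells. Gapdh encodes glyceraldehyde-3-phosphate dehydrogenase, an enzyme of glycolysis, and Rpl19 encodes a protein of the large ribosomal subunit. Such transcripts are commonly used as reference genes, and cells of the brain parenchyma other than microglia are known for low MHC class I in the resting state.

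Total RNA came from cells of C57BL/6 mice, and no treatment or transgene is given in the labels of these libraries. The immune set holds 24 libraries with numbered titles: adult microglia from 7 sites (whole brain, cortex, hippocampus, cerebellum, olfactory bulb, spinal cord and eyes), macrophages from 7 organs (spleen, liver, gut, kidney, heart, lung and muscle), 4 lymphocyte populations of the spleen (NK1.1 NK cells, B220 B cells, CD3/CD4 T cells and CD4 regulatory T cells, whose label also names Foxp3), 4 populations sorted on CD11b and Ly6C (low and Hi, from spleen and from bone marrow), and 1 library each of CD11b/CD11c spleen dendritic cells and Ly6G blood neutrophils. The neural set holds 2 libraries each of microglia, spleen red pulp macrophages, primary cortical neurons, primary hippocampal neurons, adult astrocytes and adult oligodendrocytes. The series text describes the microglia as FCRLS+ cells sorted by flow cytometry; neither the ages of the mice behind these libraries nor the number pooled per library is stated in their labels. Each library of a group in the immune set is a different organ, site or subset, and nothing says that libraries came from separate animals, so p-values measure the spread between these libraries.

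In the immune set the deposited values could be turned back into whole counts, and library totals ranged from 1741 to 75635 counts, with 11 of 24 libraries under 5000. In the neural set totals ranged from 3699 to 20498, with 1 of 12 under 5000. A probe was called above the viral limit where its count exceeded the mean plus 2 SD of the 33 viral probes in the same library, which have no target in mouse cells; the background of the mRNA probes themselves was not measured by them. The geometric mean of the 100 miRNA probes with the highest mean count was 26.8 to 26.9 in every immune library and 104 to 108 in every neural library. The geometric mean of the 4 mRNA probes ranged 77.1-fold over the immune libraries and 14.3-fold over the neural libraries. The deposited values of the mRNA probes are therefore levels relative to each library's abundant miRNAs, and the sets are compared only within themselves. In sorted bulk RNA, fewer contributing cells and less mRNA per cell cannot be told apart.

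The labels were checked against marker miRNAs, not all of which followed them. Lymphocyte libraries held 488 to 2575 of miR-150, a miRNA of mature lymphocytes, against at most 273 in any other immune library, the highest being the neutrophils. The CD11b/Ly6C libraries held 1762 to 11442 of the myeloid miR-223, whereas the neutrophil library held 326 and the dendritic cell library 373. Microglia of the immune set held 153 to 1013 of miR-342-3p, against 8.53 to 48.2 in macrophages, but lymphocytes held 85.1 to 601, so this miRNA did not set microglia apart from lymphocytes. The other 2 miRNAs listed for microglia did: miR-99a was 17.1 to 199 in microglia and 2.07 to 3.63 in lymphocytes, and miR-125b-5p was 76.7 to 997 in microglia and 0.83 to 5.44 in lymphocytes. However, miR-99a was 2.57 to 23.0 in macrophages, which overlaps microglia. In the neural set miR-99a was 168 and 191 in the microglia pair and 190 and 426 in astrocytes. Listed for B and T cells, miR-155 was 33.6 to 162 in lymphocytes and 111 to 837 in macrophages, and miR-181a was 78.01 to 369 in lymphocytes and 48.8 to 539 in microglia. Listed for myeloid cells, miR-21 was 163 to 1249 in lymphocytes and 51.1 to 404 in CD11b/Ly6C cells. The haematopoietic miR-142-3p was 6.97 to 148 in microglia, 7.68 to 87.4 in macrophages and 372 to 1005 in lymphocytes. In the neural set the microglia pair held 900 and 993 of miR-342-3p, against at most 125 in the other 10 libraries. The pair held 71 and 103 of miR-142-3p. Hippocampal neurons replicate 1, the shallowest neural library, held 16 of miR-124 and 16 of miR-9, each the value of 1 count, while replicate 2 held 331 and 905. Cortical neurons held 139 and 30 of the neuronal miR-124, against 101 and 111 in astrocytes, so this marker did not set the neuronal libraries apart. Oligodendrocytes held 517 and 547 of miR-338-3p, against at most 123 in the other neural libraries, whereas miR-219, also listed for oligodendrocytes, was 106 and 158 in them and reached 376 in hippocampal neurons. Mature sequences are shown for the listed markers miR-342-3p, miR-338-3p and miR-125b-5p, with the seed (bases 2 to 8) in capitals. Their RefSeq entries (GRCm38.p6) carry the same arm name. Being listed does not mean that a marker followed the labels. In the neural set miR-125b-5p was 409 and 773 in the microglia pair and 2298 and 6298 in astrocytes. It ran from 11.2 to 119 in macrophages. The sequence of miR-125a-5p, named further on as close to Gapdh in pattern, has the same seed as miR-125b-5p.
miR-342-3p: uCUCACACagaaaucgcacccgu
miR-338-3p: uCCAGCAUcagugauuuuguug
miR-125b-5p: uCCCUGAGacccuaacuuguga
miR-125a-5p: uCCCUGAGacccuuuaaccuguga
The endothelial miRNA miR-126-3p ranged from 0.87 to 7.57 in microglia and from 5.14 to 751 in macrophages, and the stromal miR-199a-3p from 1.75 to 21.4 in microglia and from 6.88 to 93.9 in macrophages. The erythroid miR-451 was at most 25.4 in microglia, 66.9 in macrophages, 30.8 in lymphocytes and 73.4 in CD11b/Ly6C cells. In the neural set miR-126-3p was 255 to 394 in astrocytes, 124 to 133 in oligodendrocytes, 45 to 52 in cortical and 51 to 78 in hippocampal neurons. There miR-199a-3p was 26 to 38 in astrocytes, 44 to 47 in oligodendrocytes, 59 to 141 in cortical and 39 to 157 in hippocampal neurons. These markers of other cell types differ between the groups compared next, and their part in the mRNA results was not tested.

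Actb was the highest of the 4 mRNAs in 21 of 24 immune libraries and ranked 1st among all 603 probes in 4 libraries. Its deposited value ran from 34.2 in cerebellar microglia to 575 in spinal cord microglia, with a median of 162 over the 7 sites. In macrophages it ran from 23.0 in gut to 1184 in lung, with a median of 425. The lymphocyte values were 1005 in NK cells, 1279 in B cells, 2734 in T cells and 1383 in regulatory T cells. The CD11b/Ly6C values were 165 in spleen low, 579 in spleen Hi, 5427 in marrow low and 5360 in marrow Hi cells. All 7 microglia libraries lay below all 4 lymphocyte libraries, and in the CD11b/Ly6C group both marrow populations stood above every other immune library while spleen low cells lay within the range of microglia. Dendritic cells held 1497 and neutrophils 287. On the log2(value + 10) scale, which understates differences of low values, Actb fell by 3.07 in microglia relative to lymphocytes (SE 0.848, n = 7 and 4, limma adjusted p = 0.00742). It fell by 2.89 in microglia relative to CD11b/Ly6C cells (SE 0.848, n = 7 and 4, limma adjusted p = 0.0115) and by 2.02 in macrophages relative to lymphocytes (limma adjusted p = 0.0324). The call against lymphocytes in microglia was lost in 2 of 33 alternative fits, after quantile normalisation (limma adjusted p = 0.152) and without the libraries under 5000 counts (limma adjusted p = 0.0879). The call against CD11b/Ly6C cells was lost in 4 of 33 alternative fits (limma, edgeR or DESeq2 adjusted p up to 0.190). Among them were the fits without marrow low cells (limma adjusted p = 0.134) and without marrow Hi cells (limma adjusted p = 0.109). The difference between microglia and macrophages was -1.05 and did not pass (limma adjusted p = 0.342).

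B2m followed Actb closely, with Pearson's r of 0.96 between their log2(value + 10) over the 24 immune libraries, a description over libraries that share the scaling by their own miRNAs. It was above the viral limit in 23 of 24 immune libraries, the exception being gut macrophages with 4 counts. B2m values ran from 38.5 in cerebellar to 322 in spinal cord microglia (median 117). In macrophages they ran from 30.7 in gut to 554 in lung (median 239). The lymphocyte values were 529 in NK cells, 588 in B cells, 1299 in T cells and 770 in regulatory T cells. The CD11b/Ly6C values were 68.1 in spleen low, 382 in spleen Hi, 612 in marrow low and 1559 in marrow Hi cells, dendritic cells held 721 and neutrophils 141. Every microglia value was below every lymphocyte value, while macrophages and CD11b/Ly6C cells overlapped with microglia. B2m fell by 2.63 on the log2(value + 10) scale in microglia relative to lymphocytes (SE 0.714, n = 7 and 4, limma adjusted p = 0.00688), and by 1.71 in macrophages relative to lymphocytes (SE 0.714, limma adjusted p = 0.0320). The call in microglia was lost in 1 of 33 alternative fits, after quantile normalisation (limma adjusted p = 0.215). Its differences of -0.92 between microglia and macrophages and -1.76 between microglia and CD11b/Ly6C cells did not pass (limma adjusted p = 0.340 and 0.0857). The difference between microglia and CD11b/Ly6C cells passed in 4 of 33 alternative fits (limma, edgeR or DESeq2 adjusted p down to 0.0112). The B2m gene lies on chromosome 2 at 122147687 to 122153082 on the plus strand in GRCm38.p6. The 150 bases before its start, chr2:122147537-122147686 from RefSeq, are shown because B2m is known to be inducible by interferon, with matches of a GAAA pair with any 2 bases between (the core of an interferon-stimulated response element) and of TATAA, searched on both strands, in capitals.
B2m promoter: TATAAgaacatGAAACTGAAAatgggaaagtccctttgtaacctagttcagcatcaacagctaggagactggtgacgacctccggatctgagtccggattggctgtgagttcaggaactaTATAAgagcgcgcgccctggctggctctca
The spaced GAAA pair matched at 1 place, 139 bases before the start, and is present in 3.44% of the 32851 promoter entries of RefSeq, each 300 bases long and so longer than the stretch shown. TATAA matched 30 and 150 bases before the start on the plus strand, with a match on the minus strand that overlaps the farther one and starts 1 base before the window shown, and is present in 24.9% of those entries. The 1 Gapdh and 2 Rpl19 promoter entries held neither set of letters.

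Of the 4 mRNAs, Rpl19 had the largest differences between microglia and lymphocytes and between microglia and macrophages. Its values ran from 17.1 in cerebellar to 60.5 in spinal cord microglia (median 28.0), with 5 of 7 libraries above the viral limit. In macrophages they ran from 23.0 in gut to 474 in lung (median 194). The lymphocyte values were 296 in NK cells, 509 in B cells, 1222 in T cells and 399 in regulatory T cells. The CD11b/Ly6C values were 33 in spleen low, 404 in spleen Hi, 236 in marrow low and 1043 in marrow Hi cells. Apart from gut macrophages and spleen CD11b/Ly6C low cells, each macrophage, lymphocyte and CD11b/Ly6C library was above the highest microglia value. Dendritic cells held 319 and neutrophils 312. In the 1 neutrophil library Rpl19 and Actb were close, at 64 against 59 counts. Rpl19 fell in microglia by 3.72 relative to lymphocytes (SE 0.660, limma adjusted p = 1.56e-05), by 2.69 relative to CD11b/Ly6C cells (SE 0.660, limma adjusted p = 0.00234) and by 2.02 relative to macrophages (SE 0.563, n = 7 and 7, limma adjusted p = 0.0112), all on the log2(value + 10) scale. The call against CD11b/Ly6C cells was lost without marrow Hi cells (limma adjusted p = 0.0524). It also fell by 1.70 in macrophages relative to lymphocytes (SE 0.660, limma adjusted p = 0.0236). The calls between macrophages and lymphocytes depended on the processing for each of the 3 mRNAs that passed. They were lost in 8 of 33 alternative fits for Actb (adjusted p up to 0.813), in 8 of 33 for B2m (up to 0.662) and in 7 of 33 for Rpl19 (up to 0.544). After quantile normalisation the differences were -0.35 for Actb, -0.42 for B2m and -0.54 for Rpl19, and without the libraries under 5000 counts they were -1.05, -1.06 and -0.76 in that order. All 3 calls were also lost without B cells, without T cells, without muscle macrophages or without gut macrophages, and those of Actb and B2m without regulatory T cells (limma adjusted p from 0.0514 to 0.102 over these).

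Gapdh was the lowest of the 4 mRNAs in 23 of 24 immune libraries, and 5 of the 7 microglia libraries held 1 to 4 Gapdh counts. Its values ran from 4.28 in cerebellar to 28.9 in whole-brain microglia (median 19.2), and 4 of 7 of these libraries were above the viral limit. In macrophages they ran from 7.68 in gut to 127 in lung (median 70.6). The lymphocyte values were 42.6 in NK cells, 43.6 in B cells, 89.3 in T cells and 76.2 in regulatory T cells. The CD11b/Ly6C values were 26.8 in spleen low, 53.8 in spleen Hi, 303 in marrow low and 392 in marrow Hi cells. Both marrow populations exceeded every other immune library, and macrophages and lymphocytes overlapped widely. Gapdh fell by 2.41 in microglia relative to CD11b/Ly6C cells (SE 0.542, limma adjusted p = 0.000762), by 1.51 relative to lymphocytes (limma adjusted p = 0.0363) and by 1.30 relative to macrophages (limma adjusted p = 0.0498) on the log2(value + 10) scale. The call against macrophages was lost in 24 of 33 alternative fits (limma, edgeR or DESeq2 adjusted p from 0.0127 to 0.156), and the call against lymphocytes in 10 of 33 (adjusted p from 0.00443 to 0.167). Macrophages and lymphocytes differed by -0.21 in Gapdh (limma adjusted p = 0.728). In GRCm38.p6 the Actb gene lies on chromosome 5 at 142903115 to 142907976, Gapdh on chromosome 6 at 125161852 to 125166467 and Rpl19 on chromosome 11 at 98022003 to 98030493; probe positions within the transcripts were not used here. RefSeq lists 12 genes named as Rpl19 pseudogenes, 3 as Gapdh pseudogenes and 1 as an Actb pseudogene, and whether the probes also capture their transcripts is uncertain.

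**Figure D1:**
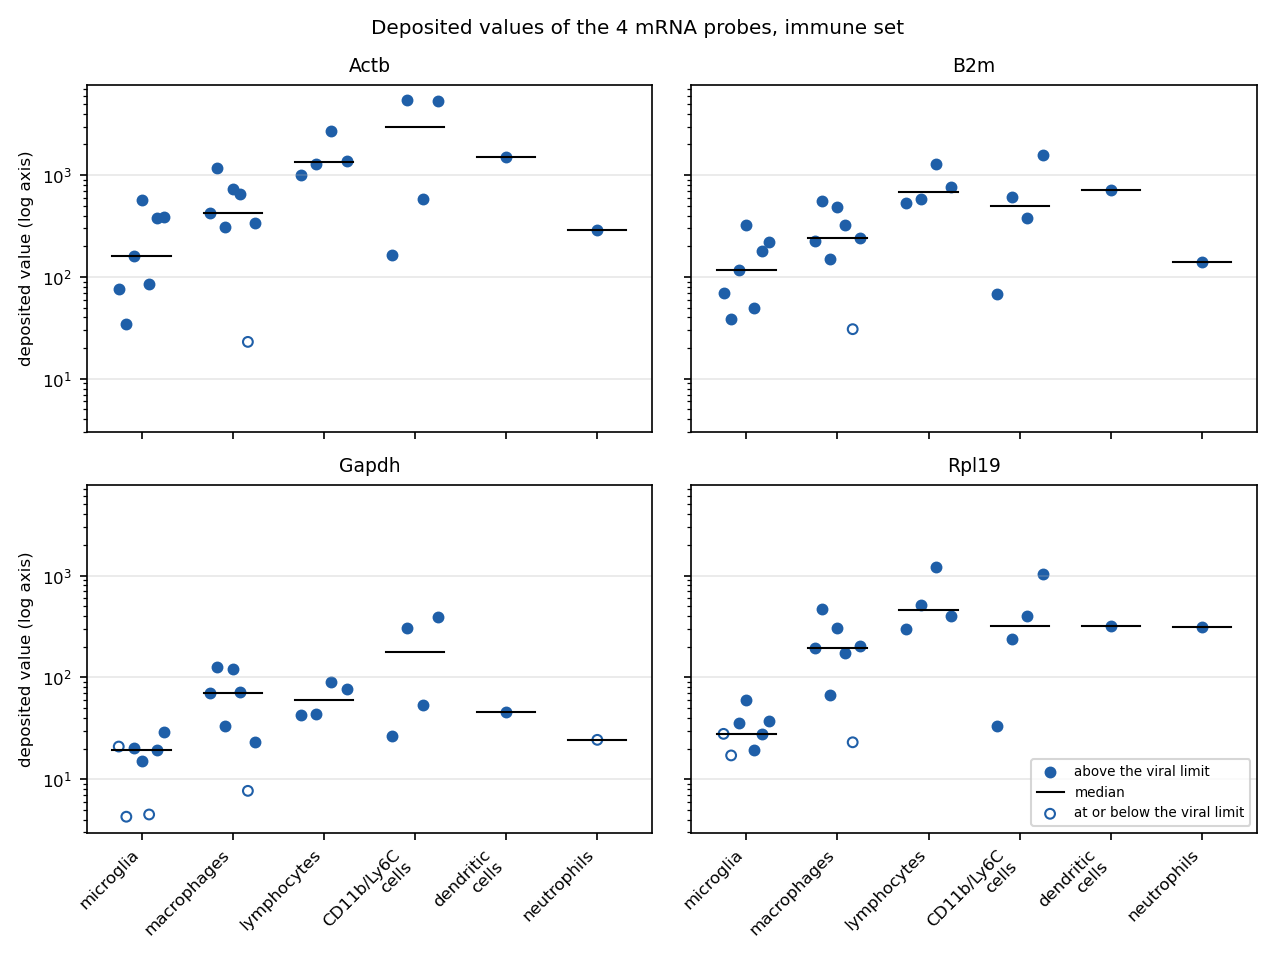
Deposited values (log axis) of Actb, B2m, Gapdh and Rpl19 in the 24 immune-set libraries, 1 point per library, with the median of each group as a bar; open points are at or below the viral limit of the library. Rpl19 is at most 60.5 in microglia and 296 to 1222 in lymphocytes, and Actb reaches 5427 and 5360 in the 2 marrow CD11b/Ly6C populations against 165 and 579 in the 2 spleen ones.

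Between microglia and lymphocytes 4 of 4 mRNAs passed the test, all lower in microglia, where 25.7% of the 136 probes tested passed in either direction. The 4 differences ran from -3.72 to -1.51, and the median over all 136 probes was 0.45. Between microglia and CD11b/Ly6C cells 3 of 4 passed, all lower, against 16.9% of probes, with a median over all probes of 0.45. Between microglia and macrophages 2 of 4 passed, both lower, against 14% of probes, with a median over all probes of -0.27. Between macrophages and lymphocytes 3 of 4 passed, all lower, where 69.1% of all probes passed, a share near that of the members; the median over all probes was 0.79. Between macrophages and CD11b/Ly6C cells 0 of 4 passed in limma against 44.1% of probes; 2 of 4 had an unadjusted p under 0.05, namely Actb (-1.83) and Gapdh (-1.11), and these 2 passed in edgeR and in DESeq2, which also called B2m. Between lymphocytes and CD11b/Ly6C cells 0 of 4 passed against 6.62% of probes, none had an unadjusted p under 0.05, and neither edgeR nor DESeq2 called one. The comparisons share groups and are not independent. Over the 6 comparisons 12 of 24 member tests passed, against 29.4% of 816 probe tests. With values scaled to the sum of the mouse miRNA probes 7 passed, against 27.1% of probe tests. edgeR called 14, against 27.5%, and DESeq2 called 15, against 33.2%. With scaling to each library's own 100 highest miRNA probes 13 passed, against 27.1%. After quantile normalisation 4 passed against 13.1%, and without the libraries under 5000 counts 5 passed against 12.7%. Without B cells 7 passed against 22.3%, and without T cells 7 against 24.1%. The difference of Rpl19 between microglia and macrophages, of Gapdh between microglia and CD11b/Ly6C cells and of Rpl19 between microglia and lymphocytes kept its call in 33 of 33 alternative fits.

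**Figure D2:**
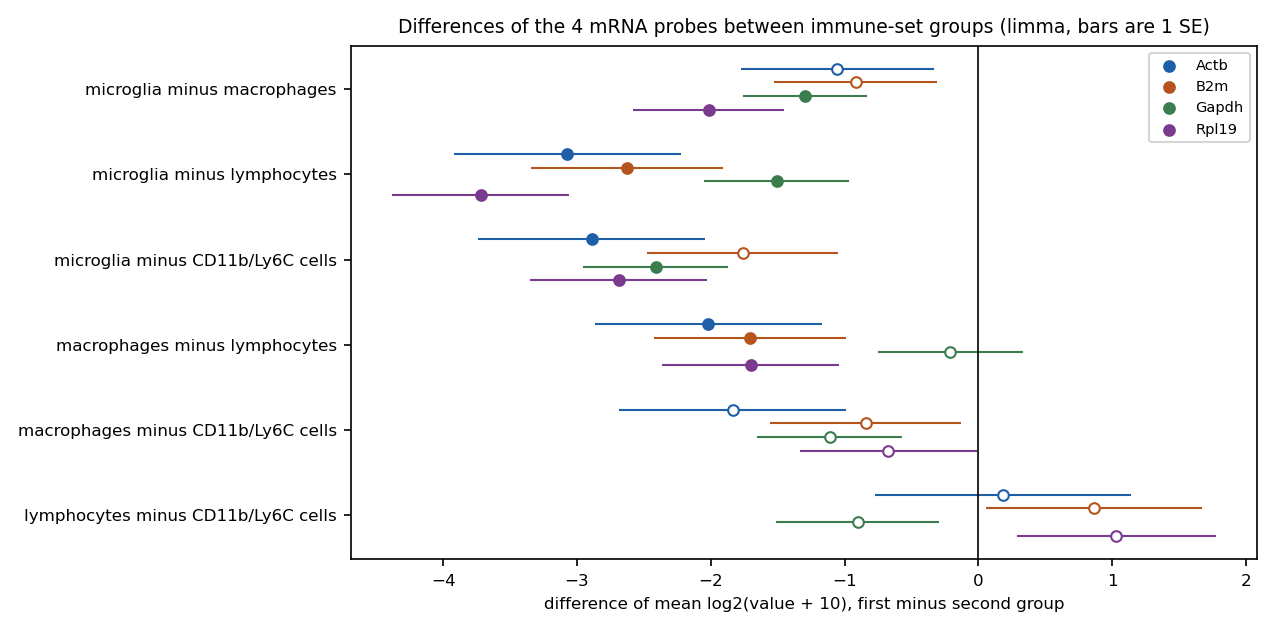
Differences of mean log2(value + 10) between immune-set groups for the 4 mRNA probes, with 1 SE from limma; filled points passed at adjusted p under 0.05 and open points did not. Points left of 0 are lower in the first-named group, and the 12 filled points all lie there, from -3.72 for Rpl19 in microglia against lymphocytes to -1.30 for Gapdh in microglia against macrophages.

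As a share of all counts in a library, the 4 mRNAs together made up 0.445% to 8.42% in microglia (median 2.58%) and 0.323% to 17.5% in macrophages (median 7.47%). The lymphocyte shares were 13.2% in NK cells, 13.1% in B cells, 24.6% in T cells and 15.1% in regulatory T cells. The CD11b/Ly6C shares were 2.42% in spleen low, 9.98% in spleen Hi, 22.6% in marrow low and 35.3% in marrow Hi cells. No microglia library reached the lowest lymphocyte share, and spinal cord microglia were above the other 6 sites. The extremes of the set were gut macrophages, with 11 mRNA counts of 3408 (exact binomial 95% interval 0.161% to 0.577%), and marrow Hi cells, with 6569 of 18583 (34.66% to 36.04%). Such intervals cover counting error only. Actb alone took 22.7% of all counts in marrow Hi cells. Among the 4 mRNAs Actb held a mean of 51.0% ± 10.1 of the counts in microglia (SD, n = 7), 45.6% ± 9.34 in macrophages (n = 7), 52.6% ± 1.05 in lymphocytes (n = 4) and 61.0% ± 17.3 in CD11b/Ly6C cells (n = 4). Lymphocytes thus had the smallest SD of the Actb share. Their libraries held 2064 to 12928 mRNA counts, against 22 in cerebellar microglia and 11 in gut macrophages. Counting error is larger in such libraries and was not separated from the SD.

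**Figure D3:**
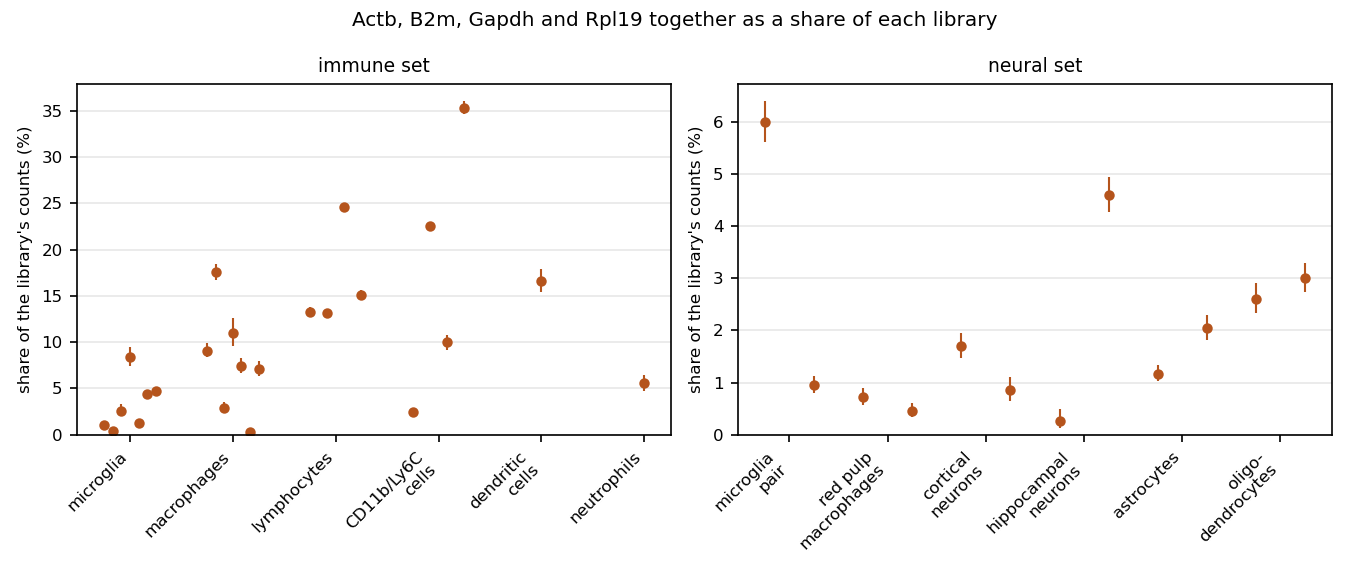
Summed share of Actb, B2m, Gapdh and Rpl19 among all counts of each library (percent, linear axis from 0), with exact binomial 95% intervals that cover counting error; left, immune set, and right, neural set on its own axis. Lymphocytes lie between 13.1% and 24.6%, microglia at or below 8.42%, and the neural-set libraries between 0.270% and 6.00%.

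The ratio of B2m to Actb needs no scaling between libraries. It was within 0.4 to 0.75 in 19 of 24 immune libraries. Microglia lay between 0.471 in cortex and 1.12 in cerebellum, where it rests on 9 and 8 counts, with whole-brain microglia at 0.573 (exact 95% counting interval 0.513 to 0.640). Macrophages lay between 0.468 in lung and 0.699 in spleen, apart from gut at 4 against 3 counts. The lymphocyte ratios were 0.5262 in NK cells, 0.460 in B cells, 0.475 in T cells and 0.557 in regulatory T cells. The spleen CD11b/Ly6C ratios were 0.412 in low and 0.660 in Hi cells, and the marrow ratios were 0.113 in low and 0.291 in Hi cells. These marrow values were the lowest of the immune set; their counting intervals ran from 0.107 to 0.119 in low and from 0.273 to 0.310 in Hi cells, against 0.305 to 0.553 in spleen low and 0.531 to 0.820 in spleen Hi cells. In marrow low cells B2m was 612 where Actb was 5427. The log2 ratio averaged -0.57 ± 0.44 in microglia and -1.70 ± 1.08 in CD11b/Ly6C cells (SD, n = 7 and 4). That difference of 1.14 had p = 0.0212 in a two-sided exact permutation test and an adjusted p of 0.127 over the 18 ratio tests made here. Macrophages exceeded CD11b/Ly6C cells by 1.03 (exact permutation p = 0.0364, adjusted p = 0.164). Without marrow low cells these differences were 0.65 for microglia and 0.54 for macrophages, and without spleen Hi cells 1.504 and 1.39. Microglia differed from macrophages by 0.11 (exact permutation p = 0.686) and from lymphocytes by 0.43 (exact permutation p = 0.0788). None of the B2m to Actb differences passed after adjustment.

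The ratio of Gapdh to Rpl19 spread more widely, from 0.0731 to 1.28 over the immune libraries. Microglia lay between 0.231 in hippocampus and 0.767 in whole brain, and all 7 were above all 4 lymphocyte libraries. Of those 7, 5 rest on 1 to 4 Gapdh counts, and only whole brain (66 against 86 counts) and cortex (22 against 32) had more. Macrophages lay between 0.114 in spleen and 0.500 in muscle, overlapping microglia and lymphocytes. The lymphocyte ratios were 0.144 in NK cells, 0.0857 in B cells, 0.0731 in T cells and 0.191 in regulatory T cells. The CD11b/Ly6C ratios were 0.813 in spleen low, 0.133 in spleen Hi, 1.28 in marrow low and 0.376 in marrow Hi cells. Within each organ the low population had the higher ratio, with 1 library per population and so no test. Microglia exceeded lymphocytes by 1.95 in log2 ratio (means -1.18 ± 0.82 and -3.13 ± 0.64, SD, n = 7 and 4), with an exact permutation p of 0.00606 over 330 arrangements and an adjusted p of 0.109. Macrophages exceeded lymphocytes by 1.46 (exact permutation p = 0.0121, adjusted p = 0.109). Lymphocytes minus CD11b/Ly6C cells gave -2.06 (exact permutation p = 0.0857). No Gapdh to Rpl19 difference passed after adjustment.

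**Figure D4:**
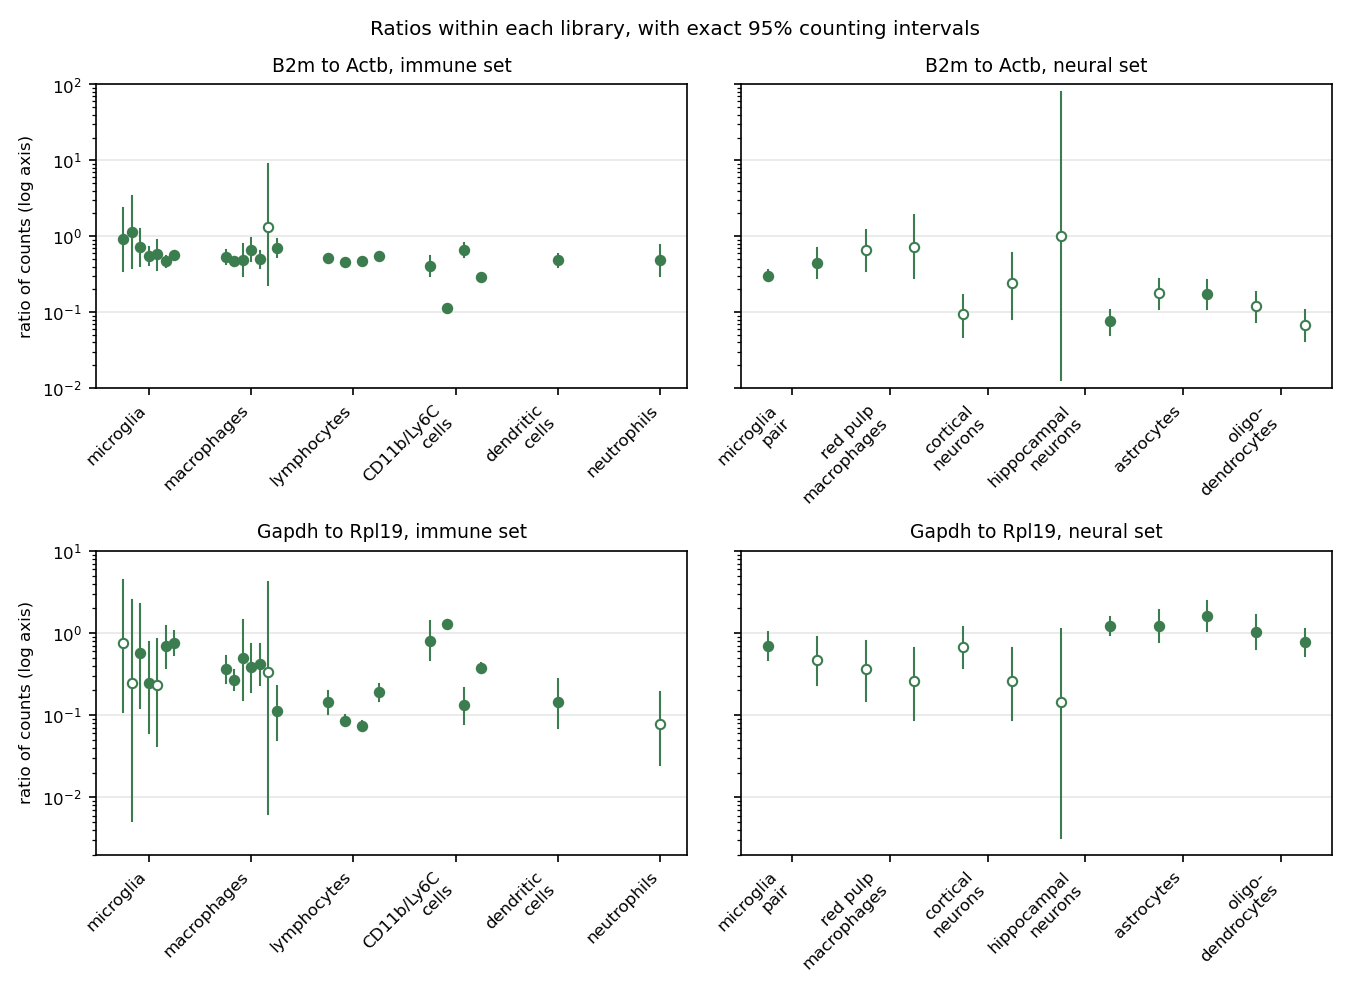
Ratios of B2m to Actb (top) and Gapdh to Rpl19 (bottom) in each library of the immune set (left) and the neural set (right) on a log axis, with exact 95% counting intervals; filled points have both probes above the viral limit. Most immune libraries lie near 0.5 for B2m to Actb, marrow CD11b/Ly6C cells lie at 0.113 and 0.291, and astrocytes and oligodendrocytes lie between 0.0690 and 0.178.

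In the neural set background was higher, with the viral limit at 14.7 to 34.1 counts recovered from rounded values, and all 4 mRNAs were above it in 3 of 12 libraries. Actb was highest of the 4 in 10 of 12 libraries, at 1565 and 169 in the microglia pair, 112 and 49 in red pulp macrophages, 447 and 186 in cortical neurons, 16 and 952 in hippocampal neurons, 269 and 401 in astrocytes and 588 and 725 in oligodendrocytes. The 2 libraries of a pair lay furthest apart in microglia and in hippocampal neurons. B2m was 477 and 76 in microglia and at most 73 in all other neural-set libraries, and it exceeded the viral limit in the microglia pair, astrocytes replicate 2 and hippocampal neurons replicate 2. The lower microglia value was thus close to the highest of the others. None of the 4 mRNAs exceeded the limit in either red pulp macrophage library, so their values there are at background. Gapdh was 134 and 37 in microglia, 35 and 24 in red pulp macrophages, 80 and 45 in cortical neurons, 16 and 313 in hippocampal neurons, 90 and 165 in astrocytes and 115 and 115 in oligodendrocytes. Rpl19 spread least, from 74 to 257. Both B2m values of astrocytes and of oligodendrocytes lay below their Gapdh values, the opposite of the order in immune libraries.

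In limma, 0 of 4 mRNAs passed between the microglia pair and the 4 neural cell types, where 1.93% of 570 probes passed. B2m came nearest, with a difference of 1.81 (SE 0.527, n = 2 and 8, limma adjusted p = 0.0939). It passed in 7 of 23 alternative fits, some of which leave 1 library of a cell type. Among the 7 were edgeR and the fit without hippocampal neurons replicate 1, but not DESeq2. B2m was the 1 mRNA of the 4 with an unadjusted p under 0.05 in the main limma fit of this comparison. None passed between red pulp macrophages and neural cells, where 0% of probes passed and Actb (-1.92) and Gapdh (-1.38) had an unadjusted p under 0.05; DESeq2 called Actb and edgeR called none. None passed between the microglia pair and red pulp macrophages, against 1.58% of probes, where Actb (2.65) and B2m (1.73) had an unadjusted p under 0.05; edgeR called B2m and DESeq2 called Actb. None passed between neurons and macroglia, meaning astrocytes and oligodendrocytes, against 0.351% of probes, with no unadjusted p under 0.05 among the 4 and no call by edgeR or DESeq2. Over these 4 comparisons 0 of 16 member tests passed, against 0.965% of 2280 probe tests. The counts changed with either hippocampal library left out. Without replicate 1, which holds 10 mRNA counts in all, 5 of 16 member tests passed and 5.79% of all probe tests did. Without replicate 2, 7 of 16 passed and 16.8% of all probe tests did, so calls rose over the whole panel as well as among the mRNAs. With both libraries kept, edgeR called 2 and DESeq2 called 2 of 16.

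The B2m to Actb ratio was 0.305 and 0.450 in the microglia pair, 0.652 and 0.735 in red pulp macrophages, 0.0940 and 0.242 in cortical neurons, 1.00 (1 count each) and 0.0756 in hippocampal neurons, 0.178 and 0.175 in astrocytes and 0.121 and 0.0690 in oligodendrocytes. Both microglia ratios were above those of 7 of the 8 neural libraries. The log2 difference between the microglia pair and neural cells was 1.20 (exact permutation p = 0.244, n = 2 and 8), and B2m was not above the viral limit in 6 of those 8 libraries. No difference is drawn from the red pulp ratios, since neither probe was above the limit there. Gapdh to Rpl19 was 0.705 and 0.474 in the microglia pair and 0.365 and 0.258 in red pulp macrophages. It was 0.678 and 0.263 in cortical neurons, 0.145 and 1.22 in hippocampal neurons, 1.22 and 1.602 in astrocytes and 1.03 and 0.772 in oligodendrocytes. Neurons minus macroglia gave -1.40 (exact permutation p = 0.143, n = 4 and 4). An exact test of 2 against 8 libraries rests on 45 arrangements, and the 2 against 2 comparison of microglia with red pulp macrophages has no test. The microglia pair and the brain microglia of the immune set stood at 0.305, 0.450 and 0.573 for B2m to Actb, values from sets with different background.

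**Figure D5:**
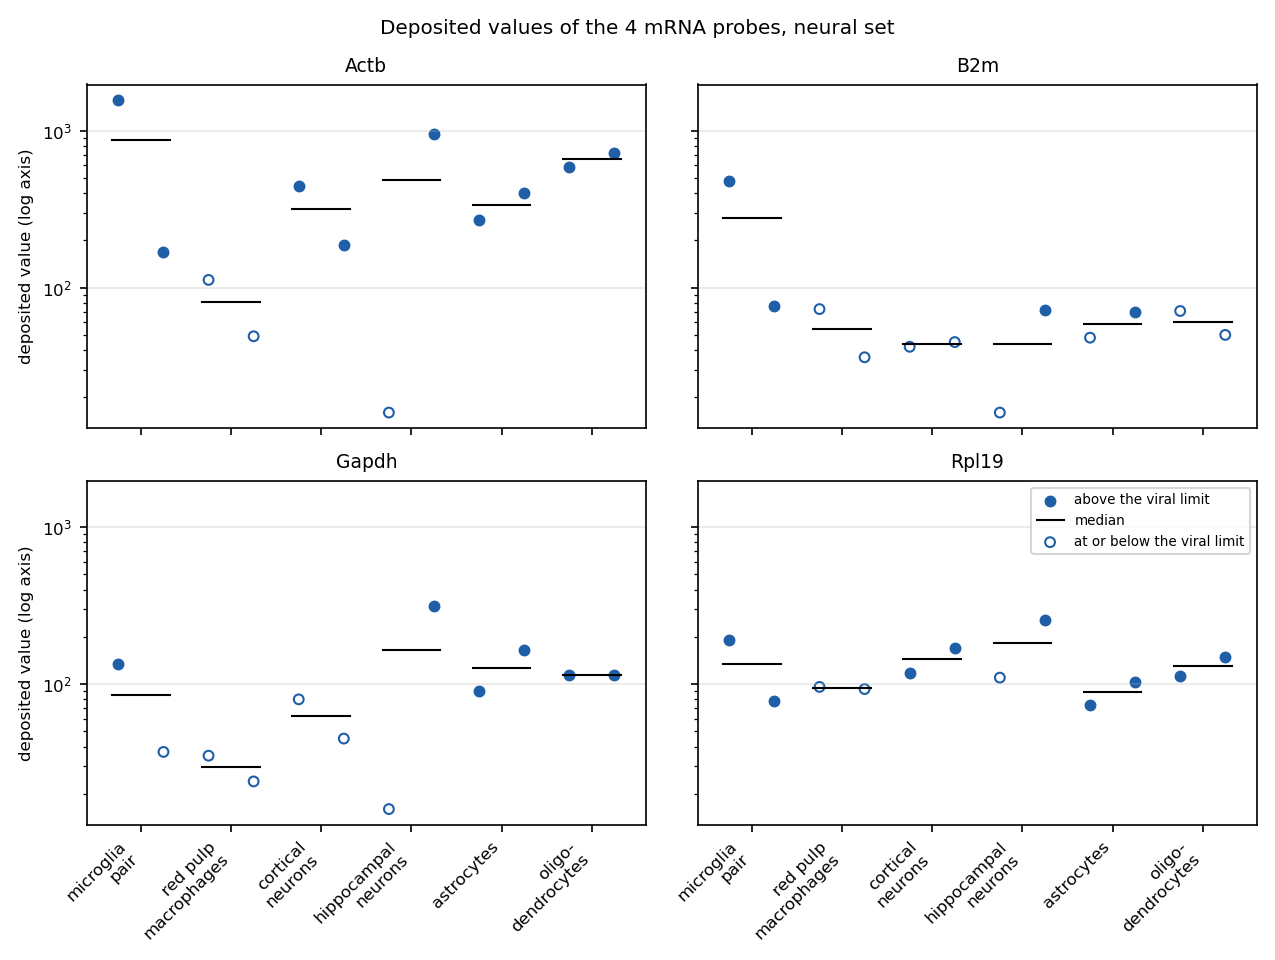
Deposited values (log axis) of the 4 mRNAs in the 12 neural-set libraries, 1 point per library, with the median of each pair as a bar; open points are at or below the viral limit of the library. B2m is 477 and 76 in microglia and at most 73 elsewhere, and all points of red pulp macrophages are open.

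The miRNA probes with the pattern most like the mRNAs were ranked by Pearson's r of log2(value + 10), as a description. Over the 24 immune libraries and 132 miRNA probes, Actb was closest to the combined probe for miR-20a and miR-20b (r = 0.81), to miR-25 (0.79) and to miR-15b (0.76). B2m was closest to let-7d (0.78), then miR-20a with miR-20b (0.75) and miR-15b (0.71). Gapdh was closest to miR-15b (0.67), miR-25 (0.67) and miR-20a with miR-20b (0.62). Rpl19 was closest to miR-15b (0.75), let-7d (0.70) and miR-25 (0.68). The same 4 probes thus fill all 12 places, while the correlations among the 4 mRNAs ran from 0.77 to 0.96. Over the 12 neural libraries and 566 miRNA probes, Actb was closest to miR-720 (0.83), let-7d (0.79) and miR-181a (0.79), B2m to miR-15a (0.74), miR-25 (0.74) and miR-16 (0.70), Gapdh to let-7d (0.74), miR-720 (0.73) and miR-125a-5p (0.68), and Rpl19 to miR-218 (0.64), miR-190b (0.58) and the combined miR-1937a and miR-1937b probe (0.58). The libraries share their scaling, depth and background in each set.

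A second nCounter assay of the series, a custom panel of 400 gene probes, names 1 of the 4 genes, Gapdh, in 35 libraries whose population names resemble those above but are not stated to be the same RNA. Of the 17 further reference and MHC class I genes listed for this comparison it names 5 (Gusb, Hprt1, Pgk1, Tubb5 and Cltc), so the 2 ratios could not be formed there. The geometric mean of Gapdh and these 5 genes was 388 in all 25 immune-type libraries and 126 to 127 in the 10 neural-type libraries, so panel Gapdh is a level relative to 5 other reference genes. Panel Gapdh ran from 455 in whole-brain microglia to 2594 (median 1644, n = 7), from 564 to 1668 in macrophages (median 1192, n = 7), from 836 to 1206 in lymphocytes (median 1034, n = 4) and from 1207 to 2763 in Ly6C monocytes (median 1650, n = 4). On that scale microglia were not below lymphocytes in median, unlike Gapdh on the miRNA panel, and the scales have different denominators. Whole-brain microglia also held 2816 of Cltc (clathrin heavy chain), against 243 to 925 at the other sites. In the neural-type libraries panel Gapdh was 262 and 198 in the microglia pair, 797 and 616 in cortical neurons, 875 and 1123 in hippocampal neurons, 1185 and 1014 in astrocytes and 574 and 684 in oligodendrocytes. Both microglia values were below all 8 neural ones.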

How the data were processed

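Values of the immune set are a signal that the authors obtained by multiplying the counts of a library by 1 factor; dividing by that factor returned whole counts for all values, within 0.1 of a count. Values of the neural set are a score, since the authors rounded scaled counts to whole numbers before they were deposited. Neural counts recovered from them are approximate: 92.7% to 100% of values per library lay within the rounding of a whole multiple, and the neural limits, shares, ratio intervals and edgeR and DESeq2 calls rest on these counts. The custom panel holds these units too. The labels name the mirVana kit for total RNA and do not say how background was treated. The array was not used here.

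Ratios were compared with two-sided exact permutation tests on log2 ratios, adjusted by Benjamini-Hochberg over 18 tests. Levels were tested as log2(value + 10) with limma 3.58.1 (lmFit, eBayes with a trend), 1 fit per set, over mouse miRNA and mRNA probes above 20 in at least 4 immune or 2 neural libraries, adjusted over all probes tested, with a call at adjusted p under 0.05. Dendritic cells and neutrophils were only described. edgeR 4.0.16 and DESeq2 1.42.0 were run on the recovered counts. The tests were checked on simulated data. Binomial and ratio intervals are exact at 95%. The members, lists and tests were chosen with earlier results of these data known. Named miRNAs are the 3 most correlated per mRNA and set, and the marker list. Libraries of a group differed by more than sampling noise, least clearly the red pulp macrophages (chi-square 1.13 times its degrees of freedom, unadjusted p = 0.0147). Counts of that pair were recovered from rounded values, and the part of the rounding was not tested.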

Additional observations from a re-analysis of the deposited data

Results flagged for a closer look

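In 3 of 32 checks, each of 1 quantity in 1 group of 4 to 10 libraries, 1 library stood far from the others. Chance alone gives about 1 in 20 for a single check. The checks reuse the same libraries and are not independent, so no excess over chance is read from them. All 3 were in the macrophage group. Gut macrophages had the lowest Actb of the 7 macrophage libraries, 5.05 on the log2(value + 10) scale, with the next at 8.31. The same library had the highest B2m to Actb ratio of that group, 0.41 in log2, with the next at -0.52; it rests on 4 against 3 counts. Spleen macrophages had the lowest Gapdh to Rpl19 ratio of the group, -3.13 in log2, with the next at -1.90, from 9 against 79 counts.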

How the results depend on the processing

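Of the member tests, 12 passed in the immune set (29.4% of all probe tests) and 0 in the neural set (0.965%). With scaling to the sum of the mouse miRNA probes 7 (27.1%) and 1 (1.49%) passed, without libraries under 5000 counts 5 (12.7%) and 5 (5.79%), and after quantile normalisation 4 in the immune set (13.1%). In the immune set 13 passed with scaling to each library's own 100 highest miRNA probes (27.1%), 14 in edgeR (27.5%) and 15 in DESeq2 (33.2%). In the neural set 1 passed with scaling to each library's own 100 highest miRNA probes (1.36%), 2 in edgeR (1.75%), 2 in DESeq2 (5.18%) and 3 with only the groups compared (3.55%). Leaving out 1 library gave 7 to 15 in the immune set (22.3% to 32.4%) and 0 to 7 in the neural set (0.132% to 16.8%). None of the 12 calls changed direction, while several uncalled differences did, and the cause was not tested; values are log2 differences. Without libraries under 5000 counts, which leaves fewer libraries, B2m to Actb was -0.014 between macrophages and lymphocytes and -0.083 between neurons and macroglia, Gapdh to Rpl19 was 0.052 between microglia and CD11b/Ly6C cells, Rpl19 was 0.27 between macrophages and CD11b/Ly6C cells, Gapdh was 0.58 between macrophages and lymphocytes, B2m was -0.13 between red pulp macrophages and neural cells, and Actb was 0.18 and Gapdh 0.23 between neurons and macroglia. With both probes above the viral limit, B2m to Actb was -1.21 and Gapdh to Rpl19 0.13 between neurons and macroglia, and Gapdh to Rpl19 was 0.13 between microglia and CD11b/Ly6C cells, where it was 0.28 with a pseudocount of 10 and 0.049 by medians. Actb between lymphocytes and CD11b/Ly6C cells was -0.79 in edgeR and -0.63 in DESeq2. B2m between red pulp macrophages and neural cells was -0.47 in edgeR, -0.42 in DESeq2, -0.37 after quantile normalisation and -0.045 with scaling to the sum. Rpl19 between the microglia pair and neural cells was 0.013 in edgeR, 0.028 in DESeq2, 0.054 after quantile normalisation, 0.026 with each library's own 100 highest and 0.017 with scaling to the sum, and Rpl19 between neurons and macroglia was -0.036 after quantile normalisation.

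With 1 library left out, B2m to Actb ranged from 0.65 to 1.504 between microglia and CD11b/Ly6C cells and from 0.54 to 1.39 between macrophages and CD11b/Ly6C cells. In the same way Gapdh to Rpl19 ranged from -0.73 to 0.36 between microglia and CD11b/Ly6C cells and from -0.56 to 0.041 between the microglia pair and neural cells, and B2m to Actb from -0.013 to 0.29 between microglia and macrophages and from -0.083 to 1.16 between neurons and macroglia. Gapdh ranged from -0.41 to 0.087 between macrophages and lymphocytes, and Actb from -0.79 to 0.86 between lymphocytes and CD11b/Ly6C cells. Between the microglia pair and neural cells Actb ranged from -0.84 to 2.29, Gapdh from -1.11 to 0.50 and Rpl19 from -0.66 to 0.53. B2m ranged from -0.35 to 0.50 between red pulp macrophages and neural cells, Rpl19 from -0.25 to 0.94 between the microglia pair and red pulp macrophages, and, between neurons and macroglia, Actb from -2.43 to 0.18 and Gapdh from -1.59 to 0.23.

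With the viral mean subtracted, the mean share of the 4 mRNAs was 2.40% in astrocytes, 5.46% in oligodendrocytes and 1.92% in cortical neurons. Without subtraction the libraries held 1.17% and 2.04% in astrocytes, 2.61% and 3.01% in oligodendrocytes and 1.71% and 0.856% in cortical neurons. Replicate numbers of the neural set did not pair the libraries (correlations of same-numbered deviations -0.23 to 0.08 over 15 pairs of cell types), and with the replicate block 0 member tests passed. The median over all probes between macrophages and lymphocytes was 0.79, 0.20 after quantile normalisation and -1.40 for probes above 100. The ratios could not be run in the custom panel, which names Gapdh alone.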
